A study of Mus musculus with 6 samples.

Results

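Interleukin 6 (Il6), its relatives Lif and Il11, the alarmin cytokine Il33, the macrophage growth factor Csf1, the receptor chains Il6st, Osmr and Lifr, the transcription factor Stat3 and its feedback inhibitor Socs3 were followed in adipocytes made from 3T3-L1, a fibroblast line of the mouse. These 10 genes were chosen by symbol from the 54713 gene IDs of the deposited files, and all 10 were listed in all 6 libraries. Of the libraries, 3 came from cells given chronic intermittent hypoxia (CIH), that is, repeated spells of low oxygen, and 3 from control cells. All 6 are labelled as wild-type adipocytes of this 1 line. Cells of both groups were induced with insulin and then kept in 0.1 µM insulin until day 8, after growth in 10% serum, and each library was made from 1.3 µg of RNA, per the labels. Oxygen levels and cycle times are not stated there. Because no label says that replicates came from separate cultures, each p-value speaks only for the spread among these libraries, and that spread may be technical.

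Cytokines of the IL-6 family act through a shared receptor chain, gp130, encoded by Il6st. Each ligand pairs gp130 with a partner, such as the receptors encoded by Lifr and Osmr or the ligand-binding chains of IL-6 and IL-11. JAK kinases on the paired chains phosphorylate STAT3, which moves to the nucleus and switches on genes that include Socs3, whose product binds gp130 and the JAKs and stops the signal. Csf1 and Il33 signal through receptors outside this family and are secreted or released by stromal cells, fat tissue included, where CSF1 sustains macrophages.

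Replicates 1 and 2 of both groups were deposited as gene tables and replicate 3 of both as transcript tables, in FPKM, a length-corrected level (fragments per kilobase, scaled for depth). Levels are not comparable between the 2 kinds, so CIH 1 and 2 were compared with control 1 and 2, and CIH 3 was set beside control 3 without a test. By the sums of cell-type markers, CIH and control differed far more within the replicate 3 pair than within replicates 1 and 2. Which library of that pair is the unusual one was not tested. The 8 adipocyte markers summed to 476 FPKM in CIH 3 and 25625 FPKM in control 3, and the 7 preadipocyte and fibroblast markers to 1723 FPKM in CIH 3 and 99.2 FPKM in control 3. In the gene tables the adipocyte markers summed to 6052 and 5292 FPKM in CIH 1 and 2, against 6400 and 7050 FPKM in control 1 and 2. The means of Cidec and Fabp4, the largest there, were 2421 and 2036 FPKM in CIH, against 2490 and 1845 FPKM in controls. Sums so weighted hide lower markers. Cfd, Slc2a4 and Pparg averaged 100, 22.4 and 50.3 FPKM in CIH, against 1114, 85.1 and 95.9 FPKM in controls. The preadipocyte and fibroblast markers summed to 153 and 158 FPKM in CIH 1 and 2, against 131 and 138 FPKM in control 1 and 2. In bulk samples a change in the number of cells of a type and a change in RNA per cell cannot be told apart.

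In replicates 1 and 2, Csf1 and Socs3 rose under CIH, Stat3 fell, and Il11, Il6st, Osmr and Lifr were not called. The 4 libraries averaged 0.1 FPKM or more for 7 of the members, and 3 of these were called by limma on log2(FPKM + 1) at a Benjamini-Hochberg adjusted p under 0.05. Of all 16118 genes tested, 26.8% were called, 12.7% higher and 14.1% lower in CIH. Il6, Lif and Il33 were below the filter and were not tested.

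The stretches of 250 bases before the RefSeq starts of the 2 genes that rose are shown 5′ to 3′ in GRCm38.p6, since Socs3 is a known STAT3 target and Csf1 had the largest log2(FPKM + 1) change among the 7 members tested. Capitals mark a match to TTCNNNGAA, the general form of a STAT-binding element, searched on both strands. The search covered each RefSeq window, from 250 bases before the start to 50 bases after it.
Socs3 (chr11:117969367-117969616, minus strand): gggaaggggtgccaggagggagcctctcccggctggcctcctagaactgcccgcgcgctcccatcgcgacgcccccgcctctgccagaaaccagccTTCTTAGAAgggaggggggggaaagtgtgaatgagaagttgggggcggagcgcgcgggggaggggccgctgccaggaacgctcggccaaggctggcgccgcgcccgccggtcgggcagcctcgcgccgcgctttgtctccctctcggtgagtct
Csf1 (chr3:107760470-107760719, minus strand): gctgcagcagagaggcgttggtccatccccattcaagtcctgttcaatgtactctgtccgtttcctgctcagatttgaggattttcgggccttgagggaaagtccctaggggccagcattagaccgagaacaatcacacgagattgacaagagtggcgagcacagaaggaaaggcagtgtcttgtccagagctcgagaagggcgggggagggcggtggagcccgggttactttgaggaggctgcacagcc
The Socs3 window held 1 match, TTCTTAGAA, at positions -154 to -146 before the RefSeq start, and the Csf1 window held none. The GENCODE gene of Socs3 reaches to 117970047 on the minus strand, so this Socs3 window lies inside it. Bases before the GENCODE start of Socs3 were not searched. The windows of Osmr and Lifr, and 1 window each of Il11 and Il33, also lie inside their GENCODE genes. Among the 13 windows that RefSeq gives for the 10 genes, the Socs3 window was the 1 with such a match. Of all 32851 RefSeq windows so defined, 7.02% held one. The stricter form TTCCNGGAA was in 0 of the 13 windows and in 0.913% of all windows. The AP-1 element TGANTCA was in 3 of the 13 and in 6.75% of all, with the match of Il11 in its window inside the gene. The NF-kB-type form GGGNNTTCC and the hypoxia-response core ACGTG were in 0 of the 13, against 4.98% and 16.6% of all. Longer NF-kB forms and other hypoxia-response cores were not searched, so these 0 counts speak for those exact runs of letters only. A match is a run of letters and does not show binding.

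Csf1 encodes the growth factor that keeps macrophages alive (chromosome 3, 107741048 to 107760469, GRCm38). Its level was 11.7 and 12.4 FPKM in CIH 1 and 2, against 3.91 and 4.82 FPKM in control 1 and 2. The groups did not overlap, with means of 12.0 ± 0.493 FPKM in CIH and 4.37 ± 0.648 FPKM in controls (SD, n = 2 each). Such a lack of overlap, in either direction, held for 67.1% of all genes tested, a share that also applies to Socs3 and Stat3 below. The log2 change was 1.28 (SE 0.108, adjusted p = 0.00228), a 2.43-fold rise on the log2(FPKM + 1) scale. In the transcript tables Csf1 was 53.9 FPKM in CIH 3 and 3.95 FPKM in control 3, and its most abundant of 6 entries was 26.6 FPKM in CIH 3 and 1.71 FPKM in control 3. The 3 tested genes whose log2 levels, centred over the 4 libraries, lay closest to Csf1 were Emp3, Thy1 and Tk1, at Euclidean distances of 0.0385, 0.0637 and 0.0713. Csf1r, the receptor for CSF1, was at most 0.0658 FPKM in the 4 gene tables, and was 0.481 FPKM in CIH 3 and 0.0564 FPKM in control 3.

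Socs3 encodes the inhibitor that STAT3 induces (chromosome 11, 117966079 to 117970047). Its level was 7.91 and 7.74 FPKM in CIH 1 and 2, against 3.52 and 4.14 FPKM in control 1 and 2. Each CIH library lay above both controls, and the means were 7.82 ± 0.119 FPKM in CIH and 3.83 ± 0.437 FPKM in controls (SD, n = 2 each). Socs3 rose by 0.87 on the log2(FPKM + 1) scale (SE 0.0959, adjusted p = 0.00434), a 1.83-fold change on that scale. It was 16.4 FPKM in CIH 3 and 1.53 FPKM in control 3.

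Stat3 moved the other way in replicates 1 and 2 (chromosome 11, 100885098 to 100939540). Its level was 29.1 and 30.1 FPKM in CIH 1 and 2, against 44.5 and 45.1 FPKM in control 1 and 2. Both CIH libraries lay below both controls, and the log2 change was -0.58 (SE 0.0713, adjusted p = 0.00572). Stat3 was 58.7 FPKM in CIH 3 and 67.2 FPKM in control 3. The last 72 bases of Stat3 overlap exons of its neighbour Stat5a on the opposite strand. No label states whether the counting used strand, so fragments in that stretch may belong to either gene. Stat5a was not called (17.5 ± 0.723 FPKM in CIH and 17.6 ± 0.379 FPKM in controls, SD, n = 2 each; adjusted p = 0.922).

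With any 1 library of replicates 1 and 2 left out, 1 group holds a single library. Calls then lean on the variance that limma shares across genes, so they do not measure how well a change repeats. With the filter at 0.1 FPKM, leaving out CIH 1, CIH 2, control 1 or control 2 ended all 3 calls. The 3 genes kept their calls when testing was limited to genes averaging 1 FPKM or more, a setting chosen after seeing the data. With 1 library left out, the log2 changes ran from 1.16 to 1.41 for Csf1, from 0.78 to 0.96 for Socs3 and from -0.61 to -0.56 for Stat3.

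**Figure D1:**
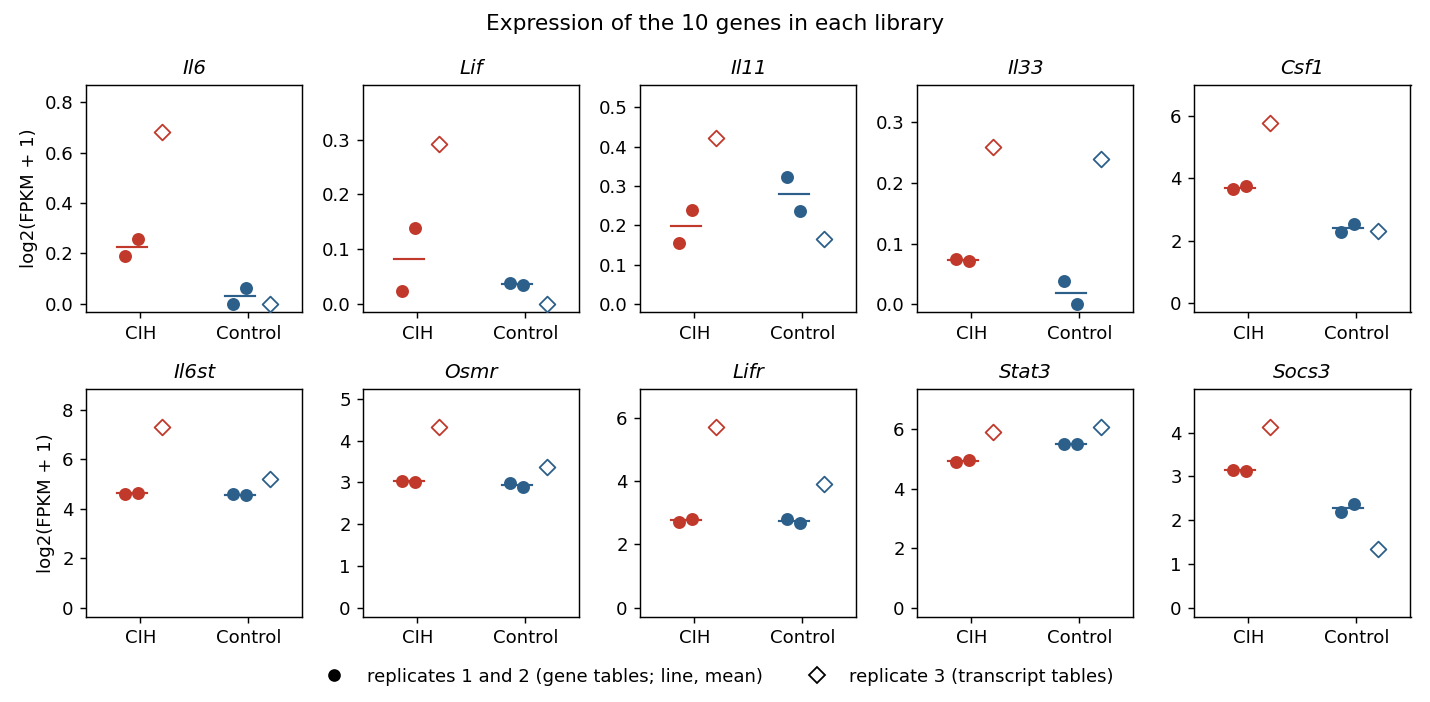
Level of each of the 10 genes in every library as log2(FPKM + 1), with a separate vertical scale per gene. Filled circles are replicates 1 and 2 with their mean as a line, and open diamonds are replicate 3 from the other kind of table. Within each kind of table, Csf1 and Socs3 were higher in every CIH library than in every control, and the 4 cytokine genes Il6, Lif, Il11 and Il33 stayed below 1 FPKM throughout.

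The receptor chains were close to level between the groups in replicates 1 and 2. Il6st, which encodes gp130 (chromosome 13, 112464070 to 112510086), was 23.3 and 23.98 FPKM in CIH 1 and 2, against 22.9 and 22.7 FPKM in control 1 and 2. Its log2 change was 0.05 with a 95% interval of -0.13 to 0.23 (adjusted p = 0.631). Osmr, the oncostatin M receptor chain (chromosome 15, 6813577 to 6874969), was 7.20 and 7.10 FPKM in CIH 1 and 2, against 6.98 and 6.43 FPKM in control 1 and 2. Its log2 change was 0.08 with an interval of -0.12 to 0.29 (adjusted p = 0.494). Lifr, the LIF receptor chain (chromosome 15, 7090614 to 7197489), was 5.57 and 6.01 FPKM in CIH 1 and 2, against 5.95 and 5.42 FPKM in control 1 and 2. Here the groups overlapped, and the log2 change was 0.02 with an interval of -0.20 to 0.25 (adjusted p = 0.875). The CIH libraries of Il6st and Osmr lay just above the controls without overlap, which was so, in either direction, for 67.1% of all genes tested. With values scaled by library totals the sign of all 3 turned, again without a call.

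In the transcript tables the same receptor chains stood higher in CIH 3. Il6st was 159.6 FPKM in CIH 3 and 36.0 FPKM in control 3, Lifr was 52.0 FPKM in CIH 3 and 14.1 FPKM in control 3, and Osmr was 19.0 FPKM in CIH 3 and 9.36 FPKM in control 3. On the log2(FPKM + 1) scale, Csf1, Il6st, Lifr and Socs3 were at least 2-fold higher in CIH 3, that is 4 of the 10 members, and 0 were at least 2-fold lower. Of all 14146 genes that averaged 0.1 FPKM or more in this pair, 20.4% were at least 2-fold higher and 9.56% at least 2-fold lower. The median of all these genes was 0.29, and it moved to 0.74 with scaling by totals and to -0.01 with the median of ratios. Relative to that median, the log2 differences were 3.18 for Csf1, 2.49 for Socs3, 1.83 for Il6st, 1.52 for Lifr, 0.66 for Osmr and -0.48 for Stat3. The preadipocyte and fibroblast markers moved with them, with 6 of 7 at least 2-fold higher in CIH 3 and a median of 3.03, while 7 of the 8 adipocyte markers had at least a 2-fold lower value (median -5.47). Pdgfra, a receptor of mesenchymal cells, was 194.2 FPKM in CIH 3 and 18.1 FPKM in control 3, and Adipoq, which encodes adiponectin, was 42.7 FPKM in CIH 3 and 2156 FPKM in control 3. In replicates 1 and 2 Pdgfra went the other way (9.55 and 10.5 FPKM in CIH 1 and 2, 12.5 and 12.9 FPKM in control 1 and 2). It was 1 of 2 markers of its list called lower there by limma, with 4 called higher. The part of these markers in the values of the 10 genes was not tested. An interaction of group and kind of table, fitted with limma after seeing the data, called 8 of the 8 members tested, all more positive in the replicate 3 pair with the values as deposited. With the median of ratios the pair difference of Stat3 was -0.63, beside -0.58 in replicates 1 and 2, and so no longer more positive. Among the 8 members, Il6 passed the filter over all 6 libraries only through its 0.605 FPKM in CIH 3. The interaction also called 64.8% of all 13452 genes, 45.3% being more positive in the pair.

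**Figure D2:**
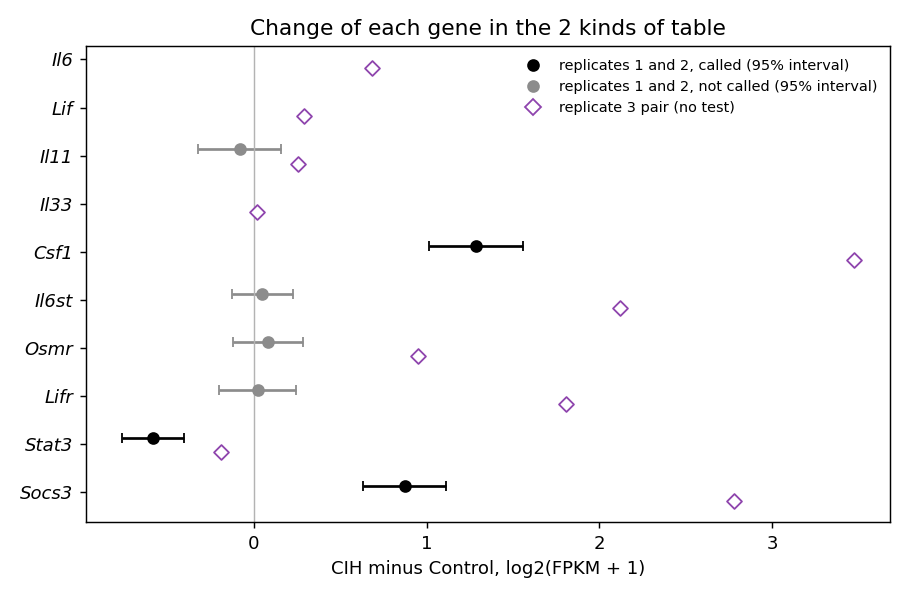
Difference between CIH and control for each gene in log2(FPKM + 1), with replicates 1 and 2 as circles (bars, 95% intervals from limma) and the replicate 3 pair as diamonds. Il6, Lif and Il33 have no circle because they were not tested. The circles of Il6st, Osmr and Lifr lie near 0, at 0.05, 0.08 and 0.02, while their diamonds lie at 2.12, 0.95 and 1.81.

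The cytokine ligands were near the limit of detection. Steps in the gene tables allow whole fragments to be counted back, as given under the processing. Il6 (chromosome 5, 30013114 to 30019981) had 9 and 13 fragments in CIH 1 and 2, against 0 and 3 in control 1 and 2, or 0.142 and 0.195 FPKM in CIH against 0 and 0.0441 FPKM in controls. The summed fragments were 22 in CIH (95% exact Poisson interval 13.8 to 33.3) and 3 in controls (0.619 to 8.77), intervals that cover counting error only. In control 1, a count of 0 allows up to 0.048 FPKM. Without the filter, Il6 had a log2 change of 0.19 (SE 0.0419) that was not called (adjusted p = 0.0706). Il6 was 0.605 FPKM in CIH 3 and listed at 0 in control 3.

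Lif, leukaemia inhibitory factor (chromosome 11, 4257557 to 4272514), had 2 and 12 fragments in CIH 1 and 2, against 3 and 3 in control 1 and 2, so that CIH 1 lay below both controls and CIH 2 above them. It was 0.224 FPKM in CIH 3 and listed at 0 in control 3. Il33 (chromosome 19, 29925114 to 29960718) had 4 and 4 fragments in CIH 1 and 2, against 2 and 0 in control 1 and 2. It was 0.197 FPKM in CIH 3 and 0.180 FPKM in control 3. Lif and Il33 were not called without the filter (adjusted p = 0.586 and 0.280). Il11 (chromosome 7, 4772373 to 4782859), a ligand that acts on fibroblasts, passed the filter at 0.114 and 0.181 FPKM in CIH 1 and 2, against 0.251 and 0.178 FPKM in control 1 and 2. The groups overlapped and Il11 was not called (log2 change -0.08, 95% interval -0.32 to 0.16, adjusted p = 0.561). It was 0.340 FPKM in CIH 3 and 0.121 FPKM in control 3. Levels per length in the CIH gene tables thus ran from Stat3 (29.6 FPKM) through Il6st (23.6), Csf1 (12.0), Socs3 (7.82), Osmr (7.15) and Lifr (5.79) to the 4 cytokines below 0.2 FPKM. The means of Socs3 and Osmr and those of Il6st and Stat3 were further apart than their SDs, and in controls, among the 6 genes above 1 FPKM, only Csf1 (4.37 FPKM) and Socs3 (3.83 FPKM) lay within their SDs of each other.

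The list of other ligands held genes of the IL-6 and IL-12 families and Il34, which encodes another ligand of the CSF1 receptor. Of 9, 5 were tested, 2 rose, 0 fell and 3 were not called. Beside the counts of this and the next lists, 12.7% of all 16118 genes tested were called higher and 14.1% lower. The median log2 change of the 5 was that of Il34 itself, 0.35 beside 0.01 over all genes, and Il34 was not called (adjusted p = 0.0942). Clcf1, a ligand of this family, was 5.47 and 6.17 FPKM in CIH 1 and 2, against 4.40 and 4.29 FPKM in control 1 and 2 (log2 change 0.35, adjusted p = 0.0424). With scaling by totals 0 of the 5 were called. Clcf1 also stood higher in the replicate 3 pair, at 10.7 FPKM in CIH 3 and 3.70 FPKM in control 3. Osm, the ligand of Osmr, was listed at 0 in all 6 libraries.

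Among the other receptors, those of IL-33 and CSF1 included, 5 of 8 were tested, 0 rose, 1 fell and 4 were not called (median 0.08). The 1 that fell was Il6ra, the ligand-binding chain of the IL-6 receptor. It was 2.53 and 2.60 FPKM in CIH 1 and 2, against 6.06 and 5.93 FPKM in control 1 and 2 (log2 change -0.97, SE 0.0812, adjusted p = 0.0022). In the replicate 3 pair Il6ra was 11.002 FPKM in CIH 3 and 10.8 FPKM in control 3. The IL-33 receptor Il1rl1 was at most 0.0444 FPKM in the gene tables and was 1.803 FPKM in CIH 3 and 0.468 FPKM in control 3. Il1rap, its co-receptor and that of IL-1, was not called in replicates 1 and 2 (1.57 and 1.75 FPKM in CIH 1 and 2, against 1.43 and 1.38 FPKM in control 1 and 2; adjusted p = 0.299). In the transcript tables Il1rap was 69.5 FPKM in CIH 3 and 5.09 FPKM in control 3.

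JAK kinases and the other STATs had 9 tested genes, of which 0 rose, 3 fell and 6 were not called (median -0.21). With scaling by totals the 3 that fell became 5. Jak2 was 5.69 and 5.89 FPKM in CIH 1 and 2, against 11.5 and 9.92 FPKM in control 1 and 2 (log2 change -0.78, SE 0.0961, adjusted p = 0.00572). Stat2, which carries interferon signals, was 5.64 and 5.43 FPKM in CIH 1 and 2, against 9.69 and 10.1 FPKM in control 1 and 2 (log2 change -0.73, adjusted p = 0.00382). Stat2 went the other way in the replicate 3 pair, at 31.2 FPKM in CIH 3 and 4.24 FPKM in control 3. The falls of Jak2 and Stat5b were not seen in that pair either. Jak2 was 20.0 FPKM in CIH 3 and 14.4 FPKM in control 3, and Stat5b was 14.1 and 12.3 FPKM. Their log2 differences were 0.44 and 0.19, beside a median of 0.29 over all genes of the pair. Stat5b fell to 11.5 ± 0.0245 FPKM in CIH, against 16.6 ± 0.907 FPKM in controls (SD, n = 2 each; adjusted p = 0.0112), and Jak1, the main kinase of gp130, was not called (24.7 ± 0.207 FPKM in CIH and 26.4 ± 1.21 FPKM in controls, SD, n = 2 each; adjusted p = 0.394).

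Inhibitors other than Socs3 numbered 15, all tested, of which 0 rose, 4 fell and 11 were not called (median -0.23). With scaling by totals the 4 that fell became 7. Socs7 fell to 3.74 ± 0.400 FPKM in CIH, against 6.05 ± 0.151 FPKM in controls (SD, n = 2 each; adjusted p = 0.0126). Socs2, the inhibitor of growth hormone signals, fell to 1.91 ± 0.00913 FPKM in CIH, against 3.06 ± 0.0338 FPKM in controls (SD, n = 2 each; adjusted p = 0.0150). The other 2 were Pias2 and Ptpn11, with adjusted p of 0.0267 and 0.0403. Socs1, the closest relative of Socs3 in action, was 1.12 and 1.15 FPKM in CIH 1 and 2, against 0.401 and 0.774 FPKM in control 1 and 2, and was not called (adjusted p = 0.0685). In the replicate 3 pair, 20.4% of all genes were at least 2-fold higher in CIH 3 and 9.56% at least 2-fold lower. Of the 15 inhibitors, 5 were at least 2-fold higher there and 0 at least 2-fold lower (median 0.59). Among the 5 were Socs2, at 15.2 FPKM in CIH 3 and 4.47 FPKM in control 3, opposite to its fall in replicates 1 and 2, and Socs1, at 5.74 FPKM in CIH 3 and 0.384 FPKM in control 3.

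Genes known as STAT3 targets in other settings did not share 1 direction. Of 19 tested, 5 rose, 4 fell and 10 were not called (median -0.04), beside 12.7% higher and 14.1% lower among all genes tested. Ccnd1, which encodes cyclin D1, was 8.20 and 9.45 FPKM in CIH 1 and 2, against 1.97 and 2.07 FPKM in control 1 and 2 (log2 change 1.70, adjusted p = 0.000948). The AP-1 genes Junb and Fos rose by 1.66 and 1.51 (adjusted p = 0.00188 and 0.000796), and the acute phase gene Saa3 by 1.22 (adjusted p = 0.00364). Downward, Hp, which encodes the haemoglobin-binding protein haptoglobin, fell to 97.4 ± 8.37 FPKM in CIH, against 806.8 ± 46.9 FPKM in controls (SD, n = 2 each; log2 change -3.04, adjusted p = 0.000425). Cebpd, Lcn2 and Bcl3 fell by 0.92, 0.55 and 0.46. In the replicate 3 pair 8 of the 18 targets listed were at least 2-fold higher in CIH 3 and 5 at least 2-fold lower (median 0.52). Over all genes of the pair these shares were 20.4% and 9.56%. Hp and Lcn2 were among the lower ones, Bcl3 stood the other way at 9.80 FPKM in CIH 3 and 1.87 FPKM in control 3, and Cebpd was not analysed in this pair. Hp and Lcn2 are also abundant in adipocytes. In replicates 1 and 2, 3 of the 7 tested adipocyte markers fell (Cfd, Slc2a4 and Pparg), with 0 higher. Of the 6 tested preadipocyte and fibroblast markers, 4 rose and 2 fell (Pdgfra and Ly6a), and their part in these results was not tested.

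**Figure D3:**
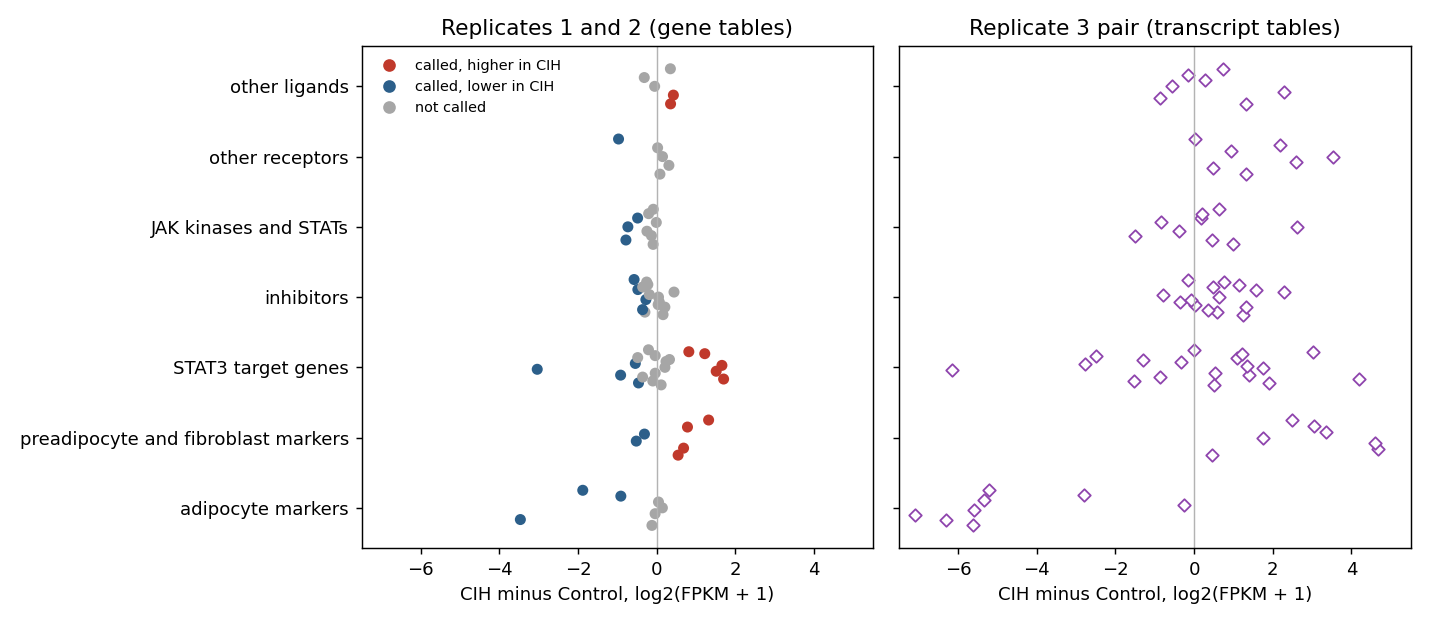
Each point is a gene of the pathway and marker lists, placed by CIH minus control in log2(FPKM + 1), for replicates 1 and 2 on the left and the replicate 3 pair on the right, where no test was made. STAT3 target genes spread to both sides in both panels. The adipocyte markers reach from -3.47 to 0.14 on the left and from -7.09 to -0.25 on the right.

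Of 7 macrophage markers, 2 were tested (Cd68 and Cd14) and 0 were called by limma, 1 of them (Cd14) having an unadjusted p under 0.05. Cd14, a co-receptor for lipopolysaccharide that made up most of the sum, was 6.27 and 6.56 FPKM in CIH 1 and 2, against 7.71 and 7.39 FPKM in control 1 and 2 (adjusted p = 0.113). The list summed to 7.72 and 8.22 FPKM in CIH 1 and 2, against 9.29 and 9.19 FPKM in control 1 and 2, with Adgre1, the F4/80 antigen, at 0 in all 6 libraries and Ptprc, the pan-leukocyte antigen CD45, at most 0.00199 FPKM. In the replicate 3 pair it summed to 12.5 FPKM in CIH 3 and 6.36 FPKM in control 3. Cd14 was 8.39 FPKM in CIH 3 and 1.40 FPKM in control 3, Lyz2, which encodes lysozyme, was 2.64 FPKM in CIH 3 and 0.285 FPKM in control 3, and Cd68 was 0.978 FPKM in CIH 3 and 4.56 FPKM in control 3. The part of these markers in the members' values was not tested. The 5 endothelial markers summed to between 0.166 and 0.303 FPKM in the gene tables, and to 0.719 FPKM in CIH 3 and 0.473 FPKM in control 3.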

How the data were processed

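RNA of 3T3-L1 cells was sequenced in 3 CIH and 3 control libraries from directional kits. The authors' deposited values are FPKM, a unit read from the values. The submitters' processing notes list GRCm38, featureCounts 1.5.0-p3 and DESeq 1.8.3, with no role stated. No aligner is named in the sources used here. Gene tables (replicates 1 and 2) hold 54532 genes. Transcript tables (replicate 3) hold 50660 entries for 21950 gene IDs, summed per gene. Names, coordinates and exon lengths came from GENCODE mouse release M21 (GRCm38), and all 10 members and all 96 list genes matched. In the gene tables, FPKM times exon length came in whole steps for 98.4% to 98.6% of genes under 50 fragments (within 0.05 of a whole fragment). The fragments so recovered sum to 26500000 to 28600000 per library. Il11 did not come out whole, so its fragments are not given. The 4 gene tables had 1 and the same median-of-ratios factor (1.00 each). Depth of the transcript tables is unknown. A count of 0 was taken to allow up to 3 fragments.

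Genes averaging 0.1 FPKM or more over CIH 1, CIH 2, control 1 and control 2 were tested on log2(FPKM + 1) with limma 3.58.1 (R 4.3.3, two-sided, empirical Bayes with a trend, group alone). The scale understates the change of low genes. The replicate 3 pair has 1 library per group and no test. All 10 members are named. In the other lists, genes named for a change were called ones, up to 4 per list and direction by size, and further genes (Stat5a, Jak1, Socs1, Il1rap, Il1rl1, Csf1r, Osm and the markers) were named after their values were seen. Some list genes are not reported here. Promoter windows are RefSeq's (GRCm38.p6). Alternatives were other pseudocounts, filters and scalings, limma without trend, a replicate block, leaving out each library, and fits of all 6. Members and lists were chosen with earlier results of these data known. Python was 3.11.15.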

Additional observations from a re-analysis of the deposited data

Results flagged for a closer look

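The CIH effect differed between the replicate 3 pair and replicates 1 and 2 for 8 of the 8 members tested, by limma's interaction of group and kind of table, a test chosen after seeing the data. With the values as deposited, in log2 units, the effect was more positive in the pair by 2.19 for Csf1, 2.07 for Il6st, 1.91 for Socs3, 1.79 for Lifr, 0.87 for Osmr, 0.49 for Il6, 0.39 for Stat3 and 0.34 for Il11, with adjusted p from 0.000724 for Il6st to 0.0329 for Il11. The same test called 64.8% of all 13452 genes, of which those more positive in the pair made up 45.3% of the genes tested, and the median difference over all genes was 0.33, so Stat3 and Il11 lay near that median. Scaled by the median of ratios, Stat3 was -0.63 in the pair and -0.58 in replicates 1 and 2. The spread comes from the gene tables alone, since the pair has 1 library per group. Il6 was below the filter in the gene tables. It passed the filter of 0.1 FPKM over all 6 libraries only through its 0.605 FPKM in CIH 3, so its call rests on that same value.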

How the results depend on the processing

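The calls of Csf1, Socs3 and Stat3 held in 9 alternatives within replicates 1 and 2: both pseudocounts, both filters, the 3 scalings, limma without trend and the replicate block. The 3 called members became 0 in the fits of all 6 libraries and 0 to 0 when 1 library was left out at the filter of 0.1 FPKM, where all 3 stayed at an unadjusted p under 0.05. Over all genes, limma's 4326 calls became 2540 without a filter, 0 to 1 without 1 library (4494 to 5514 at an unadjusted p under 0.05), 22 in all 6 libraries with the kind of table as a term, and 0 with the group alone or with a replicate block (581 and 1231 at an unadjusted p under 0.05). At the filter of 1 FPKM, a combination chosen after seeing the data, leaving out 1 library gave 2611 to 4618 calls against 4603. The 2055 higher and 2271 lower calls became 1434 and 3107 with scaling by totals, and 2590 and 1913 with the upper quartile. Median-of-ratios scaling changed nothing in the gene tables.

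Within replicates 1 and 2 a replicate block gave 3301 calls. The 3 member calls held under it, the 4 lower inhibitors became 2 and the 2 higher other ligands became 1. Same-numbered libraries deviated together at r = -0.06 across genes, and 2 pairs do not establish a pairing.

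Uncalled values turned sign as follows. Il11 was 0.0317 in the 3 fits of all 6 libraries. With scaling by totals Il6st was -0.0745, Osmr -0.0315 and Lifr -0.0877. Lifr was -0.0247 without CIH 2 and -0.0337 without control 2 under both filters, within a range of -0.0337 to 0.0792 when 1 library was left out. In the replicate 3 pair, Stat3 was 0.43 with scaling by totals, which is -0.32 relative to all genes, and Il33 was -0.0495 with the median of ratios and -0.00744 with the upper quartile. The cause was not tested. Depth limits Il6, Lif and Il33, which had at most 13 fragments in any gene table.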

Other observations

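The median-of-ratios factors of the 4 gene tables were the same to every digit written (1.00365 over 16734 genes above 0), whereas those of the transcript tables were 1.17 in CIH 3 and 0.858 in control 3. In the transcript tables, Csf1 was above 0 in 6 of 6 entries in CIH 3 and 5 of 6 in control 3, Il6st in 7 of 9 entries in both, and Il6 in 3 of 4 entries in CIH 3 and 0 of 4 in control 3. Il31ra, the receptor chain for IL-31 that pairs with Osmr, was 3.57 FPKM in CIH 3 and 0.0120 FPKM in control 3, while it was 0.148 and 0.0771 FPKM in CIH 1 and 2, against 0.144 and 0.0504 FPKM in control 1 and 2.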
